A study of Homo sapiens with 6 samples.

Results

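MYC is a transcription factor of the basic helix-loop-helix leucine zipper class that pairs with MAX and binds DNA at E-boxes, short motifs of which CACGTG is the best known. MYCN and MYCL are its paralogs, and each member of the family is known to drive growth programmes in different tumors, MYC and MYCN in medulloblastoma among them. PVT1 is a long noncoding RNA gene that lies beside MYC and is transcribed in the same direction; its promoter is known to compete with the MYC promoter for enhancers within PVT1. MYC protein has long been known to take part in the regulation of its own gene.

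MYC binding at these 4 genes was described from ChIP-seq, in which chromatin is precipitated with an antibody and the DNA held by it is sequenced. The cells were ONS76, a human medulloblastoma line. Per the labels, all libraries came from cells with the engineered genotype Inducible SOX2, and 3 libraries were made with the antibody MYC (Y69) and 3 with Normal IgG, a non-specific antibody. No doxycycline, the agent that switches on the SOX2 construct, is named in the labels, and the study states that ChIP-seq was not done under elevated SOX2. Peak lists of the 3 MYC libraries were analysed, and the IgG libraries were not used here. The methods describe combining separate immunoprecipitations from one chromatin batch. Whether the 3 replicates came from separate batches or cultures is not stated, so the spread between them may be technical.

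In the windows of the paralogs, MYCL had a peak in 2 of 3 replicates and MYCN in 0 of 3. The stretches just before their starts are shown as the regulatory DNA of these genes. They are the 250 bases before each gene's start in RefSeq (build GRCh38.p14, each on the strand of its gene, chr1:39901918-39902167 on the minus strand for MYCL and chr2:15940300-15940549 on the plus strand for MYCN), with every CANNTG, the general E-box, in capitals. They are from another build than the peaks, and no position was carried between builds.
MYCL: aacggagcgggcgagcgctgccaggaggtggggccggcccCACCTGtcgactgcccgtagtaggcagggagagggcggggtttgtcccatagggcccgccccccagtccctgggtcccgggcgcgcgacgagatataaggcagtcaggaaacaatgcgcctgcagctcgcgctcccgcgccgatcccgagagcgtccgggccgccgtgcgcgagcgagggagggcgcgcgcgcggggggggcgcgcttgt
MYCN: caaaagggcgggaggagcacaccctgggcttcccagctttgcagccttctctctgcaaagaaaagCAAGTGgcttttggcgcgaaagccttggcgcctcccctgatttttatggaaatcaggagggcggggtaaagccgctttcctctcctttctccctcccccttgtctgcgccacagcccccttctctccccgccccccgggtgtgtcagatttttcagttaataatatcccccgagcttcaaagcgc

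Each stretch held 1 CANNTG and 0 CACGTG. The motif was CACCTG for MYCL, 204 bases from the start, and CAAGTG for MYCN, 179 bases from the start. Of 35116 stretches of this length in the same table, 61.8% held a CANNTG and 6.34% a CACGTG; both motifs read as themselves on the opposite strand, and every CACGTG is also a CANNTG. GC content was 74.4% for MYCL and 57.2% for MYCN, against a median of 58% over all stretches. The genes thus did not differ in the number of these motifs, while the MYCL stretch was richer in GC. The promoters of MYC and PVT1 are not shown.

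The peaks were chosen by position alone: every deposited peak whose summit, its highest point, lay in one of 3 windows of hg19. The MYC and PVT1 window covers 380 kb of chromosome 8 from 128740000 to 129120000, the MYCN window 20 kb of chromosome 2 from 16075000 to 16095000, and the MYCL window 20 kb of chromosome 1 from 40355000 to 40375000. They held 24 of the 59006 peaks in all lists, with 9 of 24899 in replicate 1, 6 of 16809 in replicate 2 and 9 of 17298 in replicate 3. The mean was 8 peaks per replicate ± 1.73 (SD, n = 3). Of these peaks, 22 were in the MYC and PVT1 window, 2 in the MYCL window and 0 in the MYCN window.

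Peaks sharing 1 bp or more, within or between lists, were joined into places, which gave 11 places of 27801 over the whole genome. A peak from at least 2 replicates was present at 7 of the 11, against 62.4% of all places. A peak from all 3 replicates was present at 4 of the 11, against 45.0% of all places, and 4 of the 11 came from a single replicate, against 37.6%. These shares are near those of the whole lists. All 4 places found in every replicate lay in the MYC and PVT1 window: one just before the MYC start, one at the PVT1 start and a pair farther along PVT1.

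The height of a peak is given as fold enrichment, the ratio of fragments at the summit to the local background with 1 added to both. The number of fragments behind each fold was recovered from the deposited values, and its 95% exact Poisson interval covers counting error only. The genome-wide background, the fragments expected at a site if all of them were spread evenly, was 7.79 in replicate 1, 5.84 in replicate 2 and 4.76 in replicate 3, so replicate 1 gave the most precise values.

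The strongest place was at the PVT1 start. It ran from 128806376 to 128808890 on chromosome 8, and its highest summits lay 15 bp, 29 bp and 7 bp past the PVT1 start at 128806779 in replicates 1, 2 and 3. Fold enrichment was 18.0, 17.4 and 24.4 in the same order, and averaged 19.9 ± 3.84 (SD, n = 3). The summit held 216 fragments (interval 188 to 247), 145 (122 to 171) and 173 (148 to 201). Replicates 1 and 2 were close to each other and replicate 3 was higher. Within each list, 98.8%, 98.8% and 99.5% of all peaks had a lower fold, which ranked the PVT1 start 302, 203 and 78 from the top. Among the 12499 places found in all 3 replicates it ranked 166 by geometric mean fold enrichment.

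The PVT1 place was also broad, at 2515 bp against a median of 792 bp over places found in all 3 replicates. Replicates 1 and 2 each gave one peak over nearly all of it, of 2448 bp and 2211 bp. Replicate 3 divided the same stretch into 3 peaks, with summits 7 bp, 842 bp and 1422 bp past the PVT1 start. The second had a fold enrichment of 4.41 on 35 fragments and the third 8.32 on 67 fragments. In this replicate the signal thus had a main summit at the PVT1 start and a lower one more than 1 kb into the gene.

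**Figure D1:**
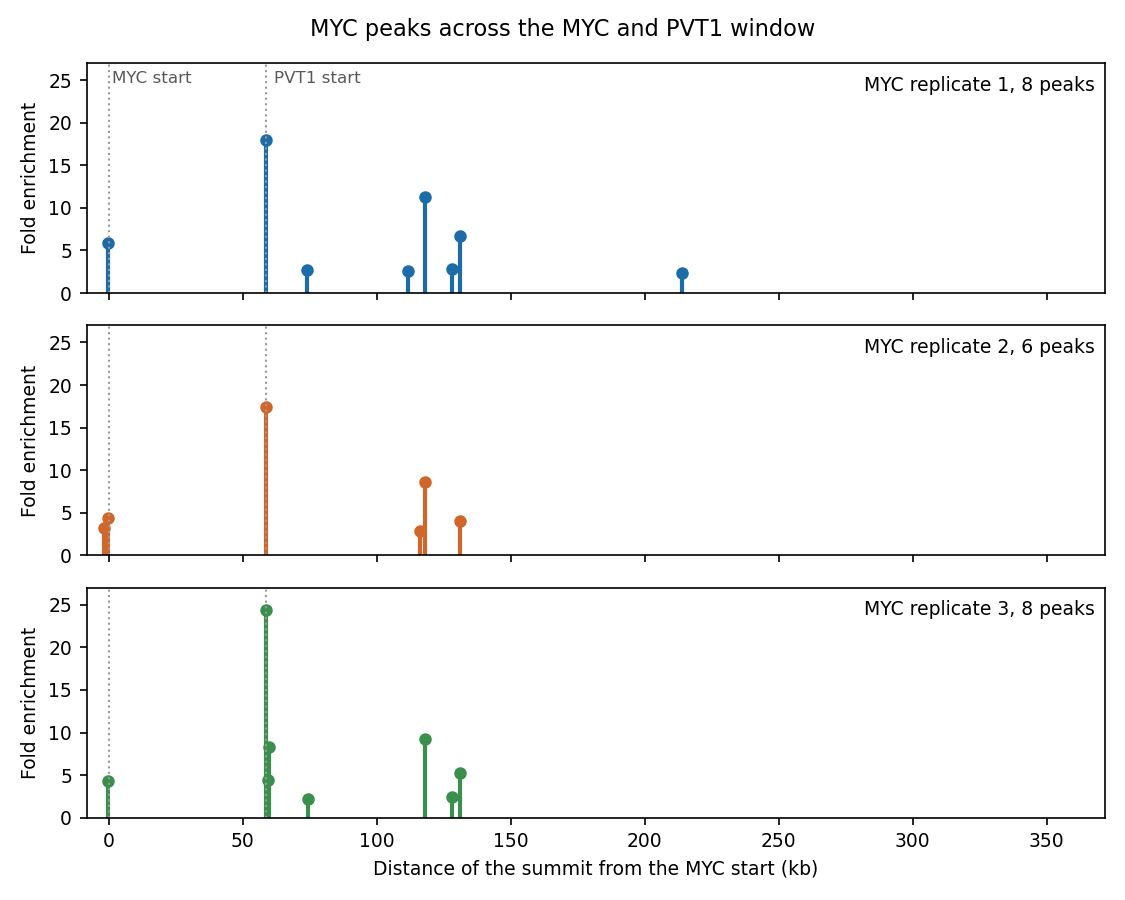
Each stem is one MYC peak, placed by the distance of its summit from the MYC start (kb, horizontal axis) and drawn to its fold enrichment (vertical axis), with 1 panel per replicate. Dotted lines mark the MYC and PVT1 starts. In each replicate the highest stem stands at the PVT1 start, at 18.0, 17.4 and 24.4, and no stem stands between the gene starts more than 2 kb from either.

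MYC was bound just before its own start. The place ran from 128747309 to 128748540 on chromosome 8, and the MYC start at 128748315 lay inside it. The summits were 375 bp, 429 bp and 401 bp before the start in replicates 1, 2 and 3, a spread of 54 bp. Fold enrichment was 5.86, 4.39 and 4.31, a mean of 4.85 ± 0.870 (SD, n = 3). Replicate 1 was the highest of the 3 here, whereas it was not at the PVT1 start. The summit held 72 fragments (interval 56.3 to 90.7), 33 (22.7 to 46.3) and 34 (23.5 to 47.5). These are ordinary values for the lists: 73.9%, 48.6% and 38.6% of peaks had a lower fold, and by geometric mean the place stood above 37.4% of places found in all 3 replicates. Replicate 2 alone had another peak 1.91 kb before the MYC start, with a fold of 3.22 on 23 fragments.

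Fold enrichment at the MYC start was thus lower than at the PVT1 start in 3 of 3 replicates, at 0.325, 0.252 and 0.177 times the PVT1 value (mean 0.251 ± 0.0741, SD, n = 3). The intervals of the summit fragments at both places did not overlap in any replicate. With 3 replicates an exact two-sided sign test cannot give a p below 0.25, so no ordering of places can pass a threshold of 0.05. Between both starts lie 58.5 kb. In the 54.5 kb of this stretch more than 2 kb from either start, no replicate had a summit.

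The second strongest place lay farther along PVT1, at a mean of 59.5 kb past the PVT1 start, from 128865567 to 128867564 on chromosome 8. Fold enrichment was 11.3 in replicate 1, 8.68 in replicate 2 and 9.23 in replicate 3 (mean 9.73 ± 1.38, SD, n = 3), on 129, 68 and 61 fragments. The values put it in the upper part of each list, above 94.6%, 89.5% and 89.3% of peaks. It was also wide, with peaks of 1998 bp, 1454 bp and 1406 bp, and its 3 summits lay within 79 bp. The PVT1 start exceeded it by 1.59, 2.01 and 2.64 times.

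The fourth place found in every replicate was at a mean of 72.7 kb past the PVT1 start, from 128879223 to 128879815. Its fold enrichment was 6.74, 4.04 and 5.27 in replicates 1, 2 and 3 (mean 5.35 ± 1.35, SD, n = 3), on 80, 34 and 39 fragments. The peaks were narrow, at 593 bp, 334 bp and 572 bp, and the summits lay within 47 bp. Its level was close to that of the MYC start. The order of the 2 places was not the same in every replicate, since the MYC start had 0.869, 1.09 and 0.818 times its fold. The order of the other pairs among the 4 places was the same in 3 of 3 replicates: PVT1 start, then +59.5 kb, then the MYC start and +72.7 kb.

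**Figure D2:**
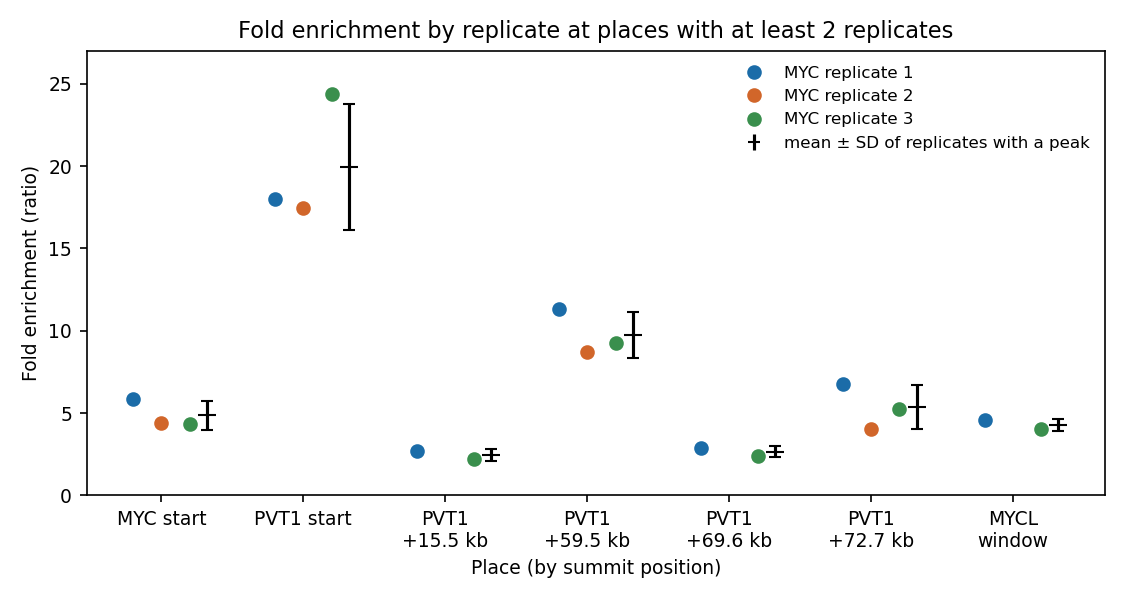
Fold enrichment (vertical axis, ratio) at the 7 places with a peak in at least 2 replicates. Colored points are replicates and black bars are the mean ± SD of the replicates with a peak; replicate 2 has no point at 3 places. The PVT1 start, with a mean of 19.9, stands above the place at +59.5 kb (9.73) and every other place in each replicate.

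The ratio of fold between replicates differed from place to place. At the PVT1 start the fold in replicate 1 was 0.739 times that in replicate 3, while the median ratio over all 12499 places shared by the 3 replicates was 1.05, and 8.30% of those places had a lower ratio. At the MYC start the same ratio was 1.36, with 85.6% of places lower. The coefficient of variation over replicates was 19.3% at the PVT1 start, 17.9% at the MYC start, 14.2% at +59.5 kb and 25.2% at +72.7 kb, against a median of 15.0% over all shared places. The spread at 3 of the 4 places was above that median, which by definition divides the shared places evenly.

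The remaining peaks of the window were weak. At 15.5 kb past the PVT1 start, replicates 1 and 3 had peaks with a fold of 2.71 and 2.22, on 31 and 22 fragments, and their summits were 309 bp apart. At 69.6 kb past it, the same replicates had peaks of 2.89 and 2.41 on 39 and 20 fragments. The peaks of replicate 3 at both places were close to the limit of calling, with q-values of 0.0373 and 0.0195, and 0.0867% and 0.364% of the peaks of its list were lower in fold. At a q-value of at most 0.01 both places were left with replicate 1 alone, and the number of places with at least 2 replicates went from 7 to 5. Single peaks stood at 53.1 kb (replicate 1, fold 2.56, 30 fragments), 57.5 kb (replicate 2, fold 2.92, 24 fragments) and 156 kb (replicate 1, fold 2.41, 33 fragments) past the PVT1 start.

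No replicate had a summit in the last 158 kb of the window. Just outside it, 1.38 kb past its upper end in replicate 1 and 1.37 kb in replicate 2, a peak had a fold of 3.17 in both. With 6 places from at least 2 replicates, the window held more than the median of 1 over 7984 stretches of 380 kb across the genome. Of these stretches, 12.0% held 6 or more and 3608 held none. They were cut without regard to genes, whereas the window was placed on genes. Parts of the chromosomes where no read can be placed were not taken out and count as empty.

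**Figure D3:**
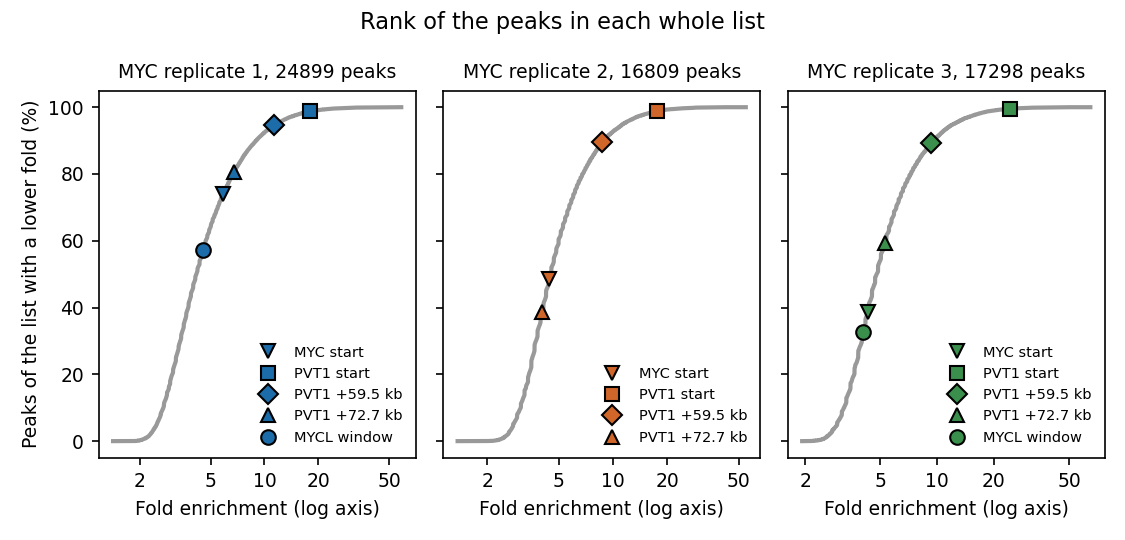
Share of the peaks of each list with a lower fold (vertical axis, %) against fold enrichment (horizontal axis, log scale), with the grey curve for the whole list and symbols for the named places, 1 panel per replicate. The PVT1 start lies at the top of each curve (98.8%, 98.8% and 99.5%), and the MYC start lies between 38.6% and 73.9%.

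At the peaks of the MYC and PVT1 window the local background was above the genome-wide level in every case. That level is the lowest of each list, so no peak can lie below it. On chromosome 8 only 48 of 1247, 108 of 835 and 110 of 847 peaks lay at it in replicates 1, 2 and 3. Over the whole lists these shares were 28.9%, 40.4% and 40.0%. In the window the median of the local background was 1.42 times that level in replicate 1, 1.23 in replicate 2 and 1.50 in replicate 3 (mean 1.38 ± 0.142, SD, n = 3). The medians over chromosome 8 were 1.36, 1.22 and 1.23, and over the whole lists 1.16, 1.05 and 1.06. The window median was thus above that of chromosome 8 in each replicate, by little in replicate 2, and chromosome 8 was itself above the list. The window medians rest on only 8, 6 and 8 peaks in replicates 1, 2 and 3. In replicate 3 the place at the PVT1 start gave 3 of these peaks. The lowest single value in the window was 1.11 and the highest 1.97, the latter at 15.5 kb past the PVT1 start in replicate 3. The background is the divisor of the fold, and with the genome-wide level as divisor instead the mean at the PVT1 start was 29.6 and at the MYC start 7.35. The number of gene copies at chromosome 8 in these cells, and its part in these values, was not tested.

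**Figure D4:**
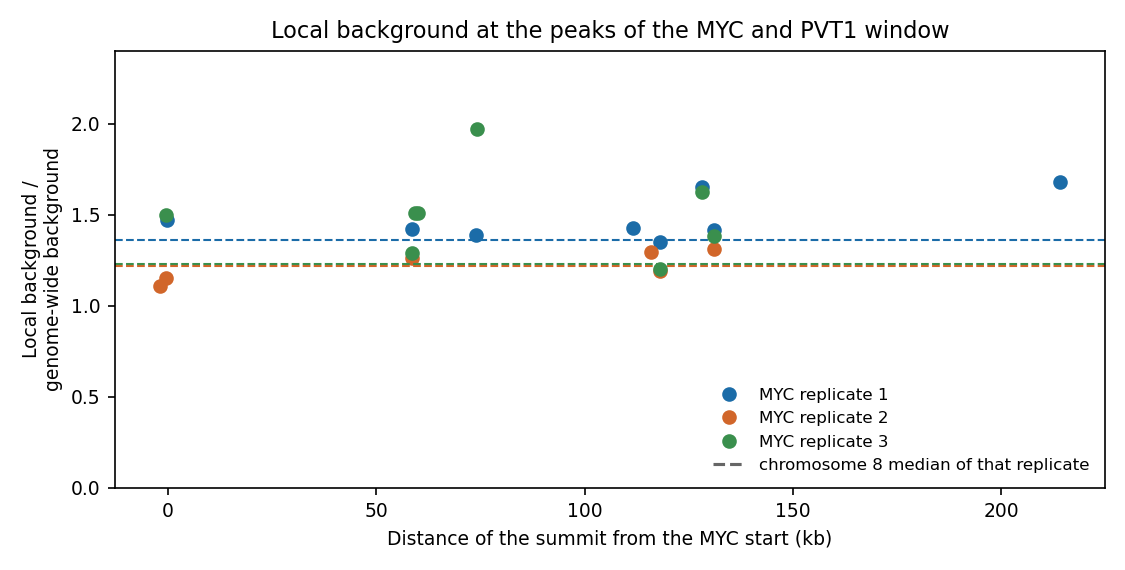
Local background at each peak of the MYC and PVT1 window divided by the genome-wide background of the same replicate (vertical axis) against the distance of the summit from the MYC start (kb, horizontal axis). Dashed lines are the medians over chromosome 8 of 1.36, 1.22 and 1.23 in replicates 1, 2 and 3. Every point lies above 1, the lowest value possible, as do most peaks of chromosome 8.

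In the MYCL window, replicates 1 and 3 had a peak at one place, from 40367457 to 40368209 on chromosome 1. Fold enrichment was 4.55 in replicate 1 and 4.03 in replicate 3, on 39 fragments (interval 27.7 to 53.3) and 25 (16.2 to 36.9), and the summits lay within 53 bp. The q-values, as −log10, were 12.6 and 6.76, far from the calling limit. Replicate 2 had no peak there.

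The MYCL place was of middling strength. By geometric mean fold it stood above 77.5% of the 4851 places found in exactly 2 replicates, while 57.3% and 32.6% of the peaks of replicates 1 and 3 had a lower fold. The local background was at the genome-wide level in replicate 1 and 1.15 times it in replicate 3. A stronger place lay just below the window, 6.04 kb from its lower end, with a fold of 10.2, 8.99 and 7.81 in replicates 1, 2 and 3. The hg19 start of MYCL was not at hand, so the position of both places relative to the gene is not given.

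The MYCN window had no peak in any of the 3 lists, as did 86.6% of the 152601 stretches of 20 kb across the genome. An empty stretch of this size was thus the common case over the genome. The stretches were cut without regard to genes, whereas the window was placed on one. They also include any parts of the chromosomes where no read can be placed, which raises the share of empty stretches. The share among stretches that hold a gene was not counted. Over all stretches the share without a summit was 87.7% in replicate 1, 91.3% in replicate 2 and 91.2% in replicate 3. At the genome-wide background the smallest called peaks had a fold of 2.28, 2.49 and 2.61, on 19, 16 and 14 fragments in replicates 1, 2 and 3. Binding too weak to be called can thus not be seen in these lists. Its limit in the MYCN window is not known, since no peak there gives the local background. The nearest summit on the lower side was 43.5 kb from the window in replicate 1, 343 kb in replicate 2 and 43.6 kb in replicate 3. On the upper side it was 1665 kb, 1707 kb and 1605 kb away. The MYCN window thus lay in a long stretch without MYC peaks in each replicate. By fold enrichment inside the windows, the PVT1 start was above the MYC start in 3 of 3 replicates. The MYCL place was found in 2 of 3 replicates, with a fold of 4.55 in replicate 1 and 4.03 in replicate 3. The MYC start was higher in each of these, at 5.86 and 4.31, and replicate 2 had a peak only at the MYC start (4.39). In replicate 1 the intervals of the summit fragments did not overlap (56.3 to 90.7 at the MYC start, 27.7 to 53.3 at MYCL). In replicate 3 the difference in fold was small, and the intervals overlapped (23.5 to 47.5 at the MYC start, 16.2 to 36.9 at MYCL). The intervals do not take in the local background, which was higher at the MYC start in both replicates, so they do not measure the difference in fold. The stronger place 6.04 kb below the MYCL window was left out of this comparison, and whether it belongs to MYCL is not known here.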

How the data were processed

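Per the labels and the study's methods, the authors used Bowtie2 for alignment to hg19 and MACS2 for calling peaks in each library, with a q-value limit of 0.05. Program versions, the treatment of duplicates and the control library are not stated in the labels or methods. The deposited values of each peak are its position, fold enrichment (a ratio with 1 added to both terms), −log10 p-value, −log10 q-value and a score, which is the whole part of 10 times the −log10 q-value. The deposited lists give no read totals. Whole fragment numbers and local backgrounds were recovered from fold and −log10 p (Poisson), with a match within 0.001 for 100% of peaks in each list, and the lowest background of a list was taken as genome-wide. The merging was checked on simulated places. The recovery was run again on values recomputed from recovered numbers of sampled peaks, which checks its arithmetic only.

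Groups and replicate numbers came from the labels. The windows, members and lists were chosen with earlier results of these data known. The rule for named items was MYC, PVT1, MYCN and MYCL, with every peak in their windows; partners such as MAX were not placed, because the annotation at hand was not of hg19. Only one group has peak lists, so no test between groups was made. Python 3.11.15, scipy 1.17.1 and matplotlib 3.10.9 were used. Positions count from 1.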

Additional observations from a re-analysis of the deposited data

How the results depend on the processing

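Of 54 alternative values, all planned, 42 stayed within 1 SD, within 1.5 times of a count or within the counting interval of a share. With 3 replicates, leaving out 1 cannot move a mean by as much as 1 SD. The 42 therefore include leave-one-out values of fold, list position, background and summit position that could not have moved, and these say nothing about stability. The number of places with at least 2 replicates was 7, and it was 4 when 3 of 3 replicates were required. Leaving out one replicate gave 4 to 7, with 4 without replicate 1 or without replicate 3, since each of the 3 places of exactly 2 replicates rests on replicates 1 and 3. With the genome-wide background as divisor the mean fold at the PVT1 start was 29.6, by construction, because the local background there is higher, and the other 3 places found in every replicate rose likewise. The share of 380 kb stretches with at least as many places as the MYC and PVT1 window was 12.0%. It was 20.2% at a q-value of at most 0.001 and 18.9% with each list held to the length of the shortest by p-value, where the window held 4 places, and 9.83% to 17.8% when a replicate was left out. No paired analysis was possible because peak lists of 1 group only were analysed, and the replicate numbers it shares with the IgG group could not be used.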

Other observations

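The places outside the windows whose fold enrichment was most like that of the PVT1 start, by distance in log2 fold enrichment over 3 replicates, were on chromosome 3 from 183415260 to 183416309 (distance 0.111), chromosome 17 from 33307186 to 33308403 (0.184) and chromosome 14 from 59950404 to 59951543 (0.201). Their mean fold enrichment was 19.5 ± 3.05, 20.4 ± 2.30 and 19.3 ± 1.83 (SD, n = 3). These values are near that of the PVT1 start by the choice of the places. The genes there were not identified here, because the annotation used is of another build.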
